A study of Cynodon dactylon with 10 samples.

Results

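Leaves of bermudagrass (Cynodon dactylon), a grass grown for turf and forage, that had received 400 mM NaCl for 7 days were compared with unstressed control leaves. Seedlings of the genotype labelled WT were 3 weeks old when the treatment began, and leaf was the only tissue sampled. The comparison rests on 4 of the 10 libraries of the study, 2 from salt-treated leaves and 2 from control leaves. The other 6 libraries are from leaves under drought (water withheld), submergence or heat (42 °C), also for 7 days and with 2 libraries each, and they enter here through the common estimate of the spread and as levels set beside those of salt. The features are contigs, transcript sequences put together from reads without gene names. Of 28456 contigs, 26884 had at least 1 RPKM in 2 or more of the 10 libraries and were tested. RPKM is a read density, the reads of a contig divided by its length and by the mapped reads of the library.

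Salt in the root zone lowers the water that a plant can draw and brings sodium and chloride into the shoot. Plants answer with abscisic acid signalling, compatible solutes that balance the osmotic pressure, and transporters that keep sodium out of the cytosol or lock it in the vacuole. Bermudagrass is regarded as a salt-tolerant grass and can secrete salt through glands on its leaves. The deposited identifiers are not paired with gene names, so these functions cannot be assigned to contigs, and neither leaf markers nor salt-response genes could be looked up.

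The salt libraries summed to 795078 and 790261 RPKM, against 778592 and 778862 RPKM in the control libraries. The number of reads is unknown. From the steps by which low values differ, the salt libraries had 0.99 and 1.01 times the depth of control replicate 1, and control replicate 2 had 0.92 times. Whether both libraries of a group derive from different plants is not in the labels, so p-values measure only how far these libraries differ, which can be technical. At the lower edge of the tested set, the 85 contigs whose second-highest library had 1 to 1.09 RPKM had a median of 0.33 RPKM in salt and in control leaves. The 88 contigs just left out, with 0.9 to 0.99 RPKM there, had medians of 0.0425 RPKM in salt and 0 RPKM in control leaves.

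Many leaf contigs differed in level between the salt and control libraries, mostly by little. At an adjusted p under 0.05 (limma, Benjamini-Hochberg over all contigs tested), 6968 of 26884 contigs were called, which is 25.9%. Of these, 3684 were higher in salt (13.7% of those tested) and 3284 were lower (12.2%). The median size of a called change was 1.31-fold, and 5284 of the calls, 75.8%, were smaller than 1.5-fold. The split into higher and lower moved with the scaling, to 5215 higher against 2074 lower for unscaled values. With only the 4 salt and control libraries in the fit, 4284 contigs were called. Leaving out any 1 of these 4 libraries also lowered the number of calls, both higher and lower.

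**Figure D1:**
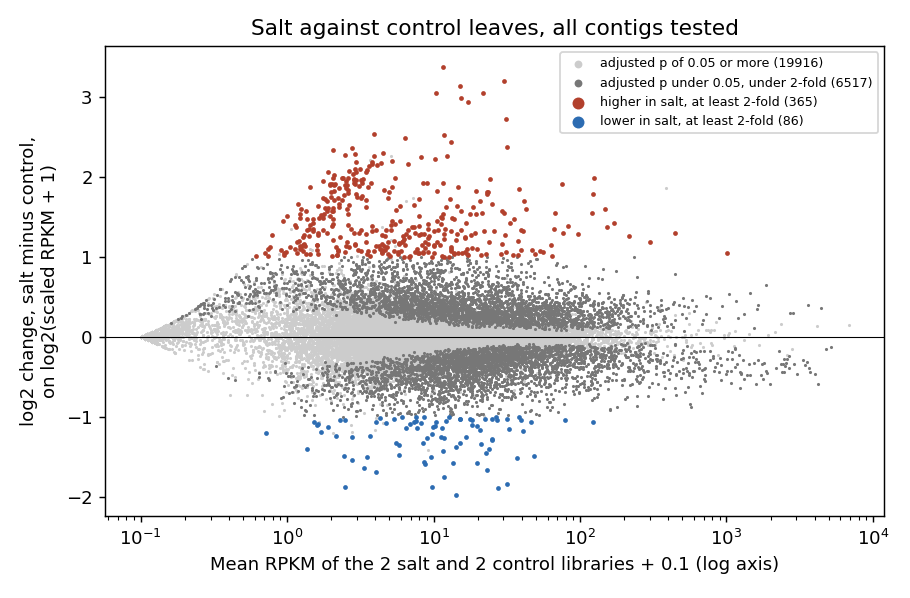
Each point is 1 of the 26884 contigs tested, with the mean RPKM of the 2 salt and 2 control libraries plus 0.1 on the horizontal log axis and the log2 change, salt minus control, on the vertical axis. The 365 contigs at least 2-fold higher in salt reach a log2 change of 3.37, while the 86 that were at least 2-fold lower reach -1.98.

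Larger changes were mostly rises. At least 2-fold, 365 contigs were higher in salt (1.36% of those tested) and 86 were lower (0.32%). Between 4- and 8-fold there were 34 rises and no fall, and 5 contigs rose at least 8-fold. The 39 contigs raised at least 4-fold had medians of 0.82 RPKM in control leaves, 7.23 RPKM in salt and 97.9 RPKM under submergence. Submergence had the highest mean for 69.2% of them (37.3% of all contigs tested), drought for 23.1% (14.4%) and salt for 5.13% (9.83%). Fold changes here are on the log2(scaled RPKM + 1) scale, which understates the change of low contigs. When 0.1 RPKM was added instead of 1, the counts at 2-fold were 717 higher and 157 lower, and with 5 RPKM they were 99 and 25.

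Both salt libraries stood above both control libraries in 8256 contigs (30.7%) and below both in 8435 (31.4%), after scaling. The gaps between libraries of 1 group are given for the changed contigs as a description, since the test favours small gaps. For the 365 raised contigs, the median gap between the salt libraries was 0.11 on the log2 scale and that between the control libraries 0.14, beside a median salt minus control change of 1.35. For the 86 lowered contigs these gaps were 0.16 and 0.09, beside a median change of -1.17. Over all contigs tested the gaps were 0.09 and 0.08. A further 15 contigs were higher and 8 lower by at least 2-fold without passing the test.

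How often a contig was called depended on its level. Of the 6729 contigs with a mean under 5 RPKM over the 10 libraries, 10.1% were called, and of the 5139 contigs with 20 to 50 RPKM, 39.4%. Among the 141 contigs at 500 RPKM or more, 78% were called. The robust SD of the log2 difference between the 2 salt libraries was 0.209 in the lowest of these classes and 0.0532 in the highest, and between the 2 control libraries it was 0.202 and 0.0446. The spread of the salt minus control changes themselves was 0.231 in the lowest class and 0.377 in the highest. The changes are differences between means of 2 libraries, for which the spread between libraries of 1 group would give 0.145 in the lowest class and 0.0347 in the highest. The observed spread was 1.59 times that in the lowest class and 10.9 times in the highest.

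The direction also differed with level. In each of the 5 classes under 500 RPKM, more contigs were called higher than lower, for instance 503 higher and 394 lower between 50 and 100 RPKM. At 500 RPKM or more, 37 were called higher and 73 lower. The median log2 change there was -0.18, beside a median of 0 over all contigs tested. Without scaling the counts in this highest class were 50 higher and 62 lower, with a median of -0.09, so the direction held. No contig at a mean of 100 RPKM or more fell at least 2-fold, whereas 30 rose in the class of 100 to 500 RPKM and 5 in the highest. The classes use the mean over all 10 libraries, so some of these rises were in contigs low in control leaves. For instance, a contig with 58.0 and 52.3 RPKM in salt, against 4.33 and 5.36 RPKM in control leaves, averaged 1719 RPKM under drought. Another with 39.91 and 38.81 RPKM in salt, against 3.03 and 4.48 RPKM in control leaves, averaged 817.4 RPKM under submergence.

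**Figure D2:**
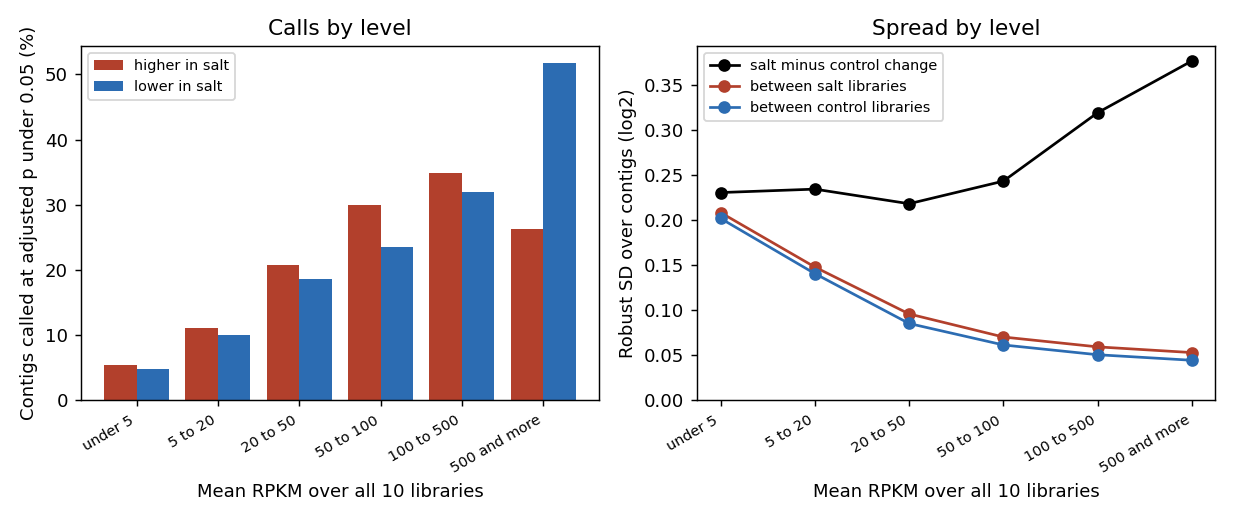
Left, the percentage of contigs called higher (red) or lower (blue) in salt than in control, by class of mean RPKM over the 10 libraries. Right, the robust SD over contigs, on the log2 scale, of the salt minus control change of group means (black) and of the difference between the 2 salt libraries (red) or the 2 control libraries (blue). Between libraries of 1 group the spread drops to about 0.05 in the highest class, where that of the salt minus control change is 0.377.

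The 20 most abundant contigs moved by less than 2-fold, in both directions. Ranked by mean over the 10 libraries, 6 of them were called higher in salt and 11 lower, and the range of their log2 changes was -0.60 to 0.65. Of the 100 most abundant, 22 were higher and 52 lower, with a median of -0.17, and 32 higher and 44 lower if left unscaled. Of the 500 most abundant, 165 were higher and 214 lower, and 207 higher and 163 lower if left unscaled. The fall among abundant contigs therefore keeps its direction under every scaling tried for the first 100, not for the first 500. The same 100 contigs held 22.4% and 22.2% of all RPKM in the salt libraries, against 23.5% and 23.9% in the control libraries.

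The contig with the highest mean over the study had 7507 and 7274 RPKM in salt, against 6332 and 6319 RPKM in control leaves. Its log2 change was 0.14 with an SE of 0.05, which did not pass the test (adjusted p = 0.0766). The second in that ranking had 2350 and 2325 RPKM in salt, against 1429 and 1384 RPKM in control leaves, a log2 change of 0.65 with an SE of 0.04 (adjusted p = 3.74e-05). The groups did not overlap in either contig, and only the second change was called. The largest loss in RPKM was that of the fourth contig, which had 3469 and 3515 RPKM in salt, against 4988 and 4976 RPKM in control leaves, a log2 change of -0.60 with an SE of 0.04 (adjusted p = 2.81e-05). The sixth varied more within groups than between them, with 4080 and 4857 RPKM in salt, against 3285 and 4451 RPKM in control leaves.

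**Figure D3:**
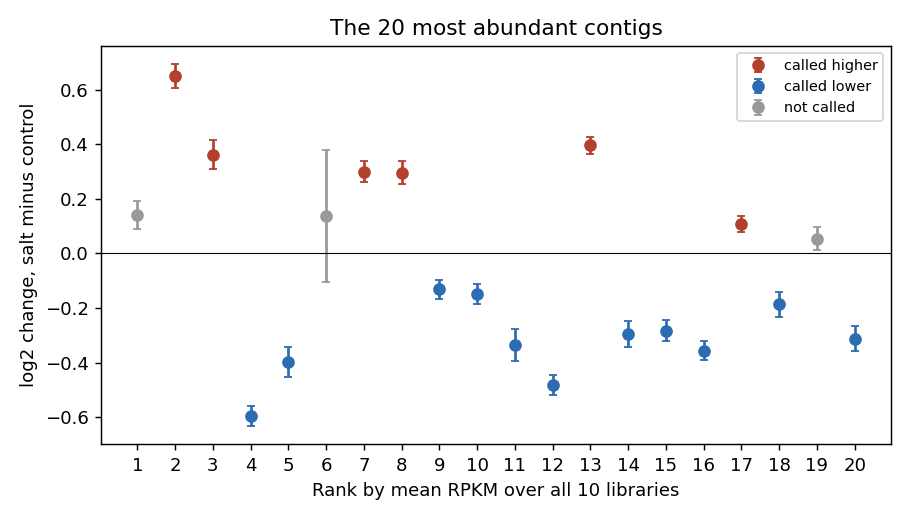
The log2 change, salt minus control, of the 20 contigs ranked first by mean RPKM over the 10 libraries, in order of that mean; bars are the SE from the fit. The 6 contigs called higher are red, the 11 called lower are blue and the 3 that were not called are grey, and no point lies beyond a 2-fold change.

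Some of the largest losses in RPKM were mild steps under salt in contigs that were far lower under the other stresses. The second-largest loss took a contig to 3455 and 3478 RPKM in salt, against 4407 and 4633 RPKM in control leaves. The same contig averaged 191 RPKM under drought, 235 RPKM under submergence and 77.5 RPKM under heat. A contig with 2066 and 2234 RPKM in salt, against 2751 and 2762 RPKM in control leaves, averaged 217 RPKM under drought, 38.9 RPKM under submergence and 142 RPKM under heat. In both, the salt libraries lay below the control libraries and far above the means of the other stresses.

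Gains among abundant contigs were of several kinds. The largest rise of at least 2-fold by RPKM was in a contig with 1356 and 1403 RPKM in salt, against 632 and 627 RPKM in control leaves, a log2 change of 1.05 with an SE of 0.03 (adjusted p = 9.29e-07). It averaged 1134 RPKM under drought, 17.0 RPKM under submergence and 51.7 RPKM under heat. Its salt and drought levels were thus both above the control, and its submergence and heat levels below it. A contig with 4221 and 4210 RPKM in salt, against 3064 and 2988 RPKM in control leaves, averaged 3600 RPKM under submergence. Its means were 295.5 RPKM under drought and 452.5 RPKM under heat.

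The 365 contigs raised at least 2-fold were mostly low in control leaves. Their median was 7.18 RPKM in salt, against 2.08 RPKM in control leaves, beside 9.41 and 8.93 RPKM for all contigs tested. Choosing contigs for a rise favours a low control level. The interquartile range of the 365 was 3.70 to 19.1 RPKM in salt, against 0.495 to 5.95 RPKM in control leaves. Of the 365, 106 had at least 5 RPKM in control leaves, and these had a median of 30.4 RPKM in salt, against 9.82 RPKM in control leaves. Together the 365 held 1.18% ± 0.00695 of all RPKM in salt, against 0.416% ± 0.00125 in control leaves (SD, n = 2 each). Most of that share was in the 106 contigs with at least 5 RPKM in control leaves, which held 0.966% ± 0.0078 in salt, against 0.368% ± 0.00112 in control leaves (SD, n = 2 each). These shares describe contigs chosen for the rise.

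The raised contigs were divided by their response to submergence, and their levels under submergence are fixed by that division. The comparisons of each stress with control share the control libraries, so levels are set side by side and overlaps are not tested. Submergence raised 140 of the 365 by 8-fold or more, and 4.51% of all contigs tested. In these the median was 0.203 RPKM under drought and 0.11 RPKM under heat, both under the control median of 0.487 RPKM, while their salt median was 4.21 RPKM. They held 0.183% ± 0.00297 of RPKM in salt, against 0.045% ± 0.00117 in control leaves (SD, n = 2 each). The files carry no sequences, and the origin of these contigs was not tested.

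The other 225 raised contigs were higher under drought than under salt by their medians. The median level was 12.7 RPKM in salt, 19.5 RPKM under drought, 5.58 RPKM under submergence, 9.30 RPKM under heat and 3.86 RPKM in control leaves. Their median log2 change from control was 1.27 for salt, 1.65 for drought, 0.10 for submergence and 0.74 for heat, while over all contigs tested these medians were 0.10 for submergence and 0 for salt, drought and heat. Salt was directly compared with drought in the same fit, where 6.88% of all contigs tested were at least 2-fold higher in salt and 5.91% at least 2-fold lower. Of the 225, 56 were at least 2-fold higher in salt than under drought and 90 at least 2-fold lower. Of the 140 that submergence raised 8-fold, 111 were higher and 22 lower by that limit. Over all 365 the counts were 167 higher (45.8%) and 112 lower (30.7%), so the direction differed between the 225 and the whole. Choosing contigs raised in salt favours the higher count. With the contigs raised 8-fold by submergence left out before fitting, 226 contigs rose and 86 fell at least 2-fold.

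**Figure D4:**
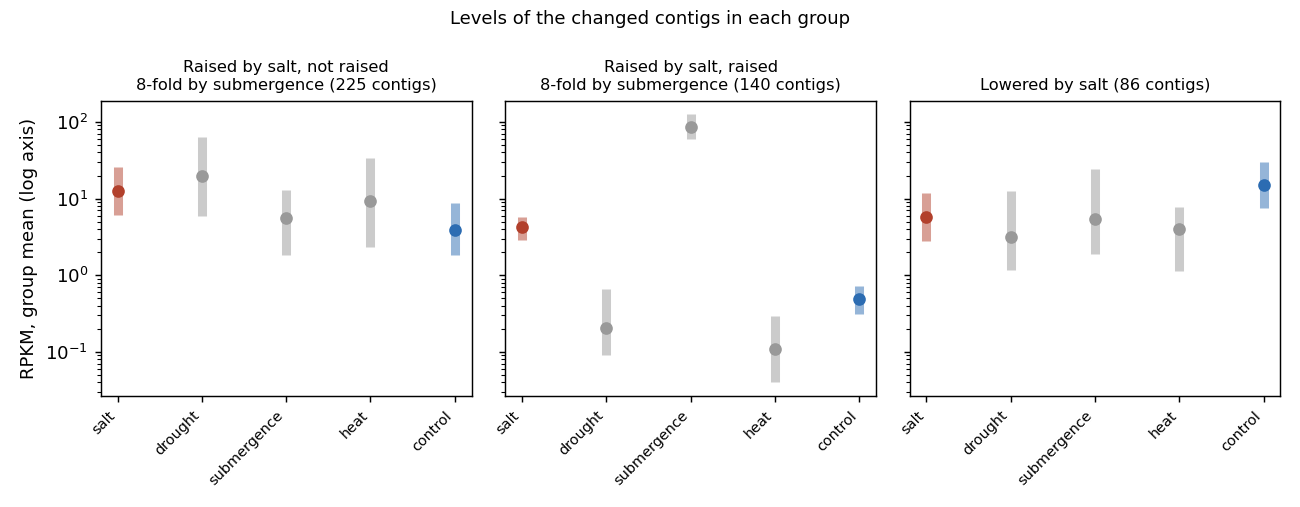
Median (point) and interquartile range (bar) over contigs of the group mean RPKM, on a log axis, for the 225 contigs that salt raised at least 2-fold and submergence did not raise 8-fold, the 140 raised by both, and the 86 lowered at least 2-fold by salt. The 225 have their highest median under drought, at 19.5 RPKM, and the 140 under submergence, at 86.1 RPKM, which the division by submergence fixes.

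Salt was the group with the highest mean for 77 of the 365 raised contigs, all of them among the 225. These means are of RPKM as deposited, and scaling would lower submergence and heat beside salt and control. The highest mean was under submergence for 152, under drought for 85 and under heat for 51. In percent of the 365 these are 21.1% for salt, 41.6% for submergence, 23.3% for drought and 14.0% for heat. Over all contigs tested the percentages are 9.83%, 37.3%, 14.4% and 28.2% in the same order. The 365 were chosen for salt above control, so control could not be highest and salt was favoured. The larger share for salt is therefore partly fixed by the choice. Against submergence 15.5% of all contigs tested were at least 2-fold higher in salt, and against heat 15.4%. Of all contigs tested, 2.35% were at least 2-fold higher in salt than under each of the other stresses. In 40 contigs the salt level was at least 2-fold above control and above each of the other stresses, with an adjusted p under 0.05 for each. These 40 had a median of 21.7 RPKM in salt, against 5.71 RPKM under drought, 6.14 RPKM under submergence, 2.29 RPKM under heat and 6.70 RPKM in control leaves. They held 0.255% ± 0.000663 of RPKM in salt, against 0.0949% ± 0.000231 in control leaves (SD, n = 2 each). The 40 were chosen for these differences, so their medians and shares are description only.

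A few contigs came up from near absence. From under 0.5 RPKM in control leaves, 7 of the 26884 contigs tested reached at least 5 RPKM in salt, and no contig went the other way. Of the 7, 6 were called. With 2 RPKM as the upper level, 73 contigs appeared in salt, 71 of them called, and 1 disappeared. The 73 had a median of 3.22 RPKM in salt, against 0.34 RPKM in control leaves. Under submergence their median was 68.5 RPKM, against 11.4 RPKM for all contigs tested. Listed at 0 in both control libraries and with at least 1 RPKM in both salt libraries were 6 contigs. Their median was 1.99 RPKM in salt and 3.73 RPKM under submergence. The reverse was seen in 0 contigs.

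The 2 raised contigs named by rule had the largest rises among contigs averaging at least 10 RPKM over all 10 libraries. The rule also asked for no overlap between groups and no other contig of their subcomponent in the table. Both would average under 10 RPKM without their salt libraries. The rule thus favours a salt level above the other groups. The largest rise of all called contigs, a log2 change of 3.37, was in a contig below that mean, with 22.51 and 21.41 RPKM in salt, against 1.03 and 1.34 RPKM in control leaves. comp54812_c1_seq1 had 19.25 and 19.18 RPKM in salt, against 1.52 and 1.27 RPKM in control leaves, a log2 change of 3.05 with an SE of 0.08 (adjusted p = 1.06e-06). Both salt libraries were far above both control libraries. It had 10.91 and 11.65 RPKM under drought, 18.09 and 16.76 RPKM under submergence, and 4.7 and 4.41 RPKM under heat. In the direct comparisons salt was higher than drought by a log2 difference of 0.72 (adjusted p = 0.000145), than submergence by 0.31 (adjusted p = 0.0099) and than heat by 1.997 (adjusted p = 1.39e-07).

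comp51520_c0_seq2 had 30.28 and 32.02 RPKM in salt, against 3.06 and 3.05 RPKM in control leaves, a log2 change of 2.93 with an SE of 0.08 (adjusted p = 1.20e-06). Its other levels were 5.01 and 4.73 RPKM under drought, 12.83 and 11.93 RPKM under submergence, and 0.64 and 0.58 RPKM under heat. The salt libraries were the highest of all 10, which the rule favours, and the heat libraries lay below the control libraries. Salt was higher than drought by a log2 difference of 2.46 with an SE of 0.08 (adjusted p = 1.14e-07).

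By their medians, the 86 contigs lowered at least 2-fold were above all contigs tested in control leaves and below them in salt. Choosing them for a fall favours that pattern. Their median was 5.84 RPKM in salt, against 14.9 RPKM in control leaves, beside 9.41 and 8.93 RPKM for all contigs tested. The 86 held 0.102% ± 0.00189 of RPKM in salt, against 0.243% ± 0.00406 in control leaves (SD, n = 2 each). Their medians elsewhere were 3.15 RPKM under drought, 5.43 RPKM under submergence and 3.99 RPKM under heat. Salt was the lowest of the 5 groups for 13 of the 86 (15.1%, against 11.3% of all contigs tested). Control was the highest for 45 (52.3%, against 10.3%). The choice of contigs with salt below control favours both, and these ranks are of means of RPKM as deposited. The count of 86 depends on the scaling, being 55 without it. With 1 contig per subcomponent, 39 contigs fell and 274 rose at least 2-fold. That fit tested 18232 contigs instead of 26884, so the smaller count is not due to related contigs alone.

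The 2 lowered contigs named by the same rule each reached its mean of 10 RPKM through 1 other stress in which they were high, so their contrast there follows from the choice. comp48965_c1_seq1 had 3.16 and 4.39 RPKM in salt, against 14.51 and 16.44 RPKM in control leaves, a log2 change of -1.88 with an SE of 0.12 (adjusted p = 2.82e-05). Under drought it had 185.87 and 184.25 RPKM, so the drought libraries lay above the control libraries and the salt libraries below them. It had 1.69 and 1.75 RPKM under submergence, and 7.58 and 6.98 RPKM under heat. The direct log2 difference of salt from drought was -5.31 with an SE of 0.12 (adjusted p = 1.25e-08).

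comp52927_c0_seq3 had 3.15 and 5.04 RPKM in salt, against 13.07 and 13.45 RPKM in control leaves, a log2 change of -1.59 with an SE of 0.15 (adjusted p = 0.000215). It had 94.47 and 97.12 RPKM under submergence, 2.13 and 2.29 RPKM under drought, and 1.49 and 1.36 RPKM under heat. Here submergence stood above control, and salt, drought and heat below it. The direct log2 difference of salt from submergence was -4.10 with an SE of 0.15 (adjusted p = 3.98e-08).

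**Figure D5:**
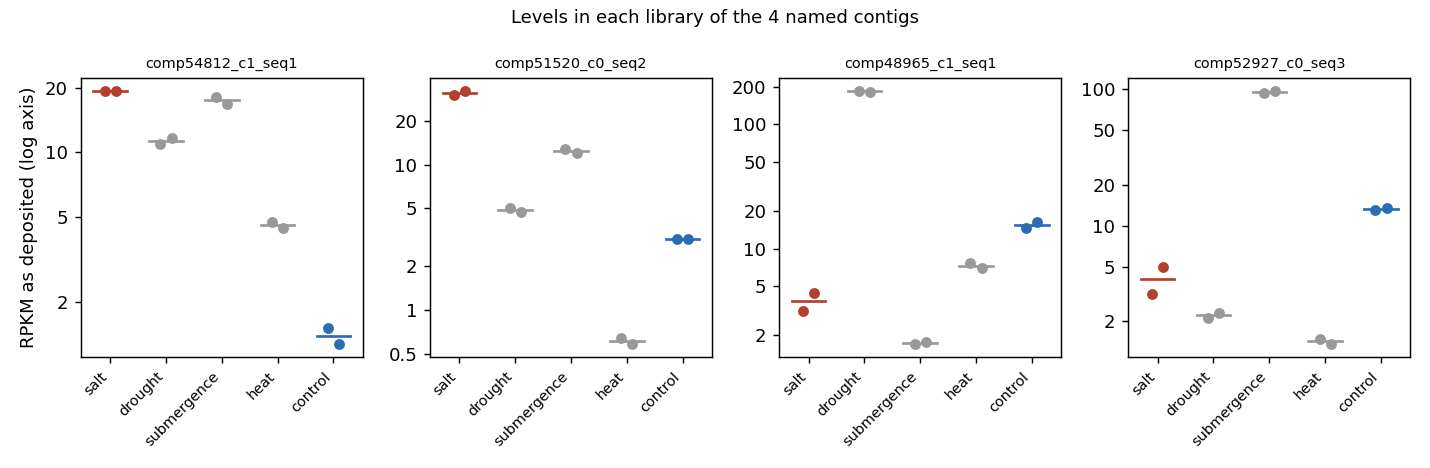
RPKM as deposited, on log axes, of the 4 named contigs in each of the 10 libraries (points) with the group means (lines). The salt libraries (red) lie above the control libraries (blue) in the 2 panels on the left and below them in the 2 on the right; in comp48965_c1_seq1 both drought libraries exceed 180 RPKM, and in comp52927_c0_seq3 both submergence libraries exceed 90 RPKM.

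Contigs whose identifiers differ in the last part alone belong to 1 subcomponent of the assembly and can be variants of 1 transcript or close copies of a gene. Reads may be split between them, so their single values are uncertain. At least 1 such relative in the tested set was found for 41.1% of the 365 raised and 72.1% of the 86 lowered contigs, against 50.3% of all contigs tested. The raised contigs came from 320 subcomponents and the lowered ones from 60. In 18 subcomponents of several contigs all members rose at least 2-fold, and in 4 all fell. Among the 907 subcomponents with 2 or more called contigs, 86 held both a higher and a lower one, and 1 held both a rise and a fall of at least 2-fold.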

How the data were processed

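RNA from leaves was measured in 10 libraries, and the salt and control libraries were compared. Per the file headers, the deposited values are RPKM, 1 column per library; the authors gave 2 decimals. Per the submitters' processing notes, which give no roles, the tools were HTSeq 0.6.1, DESeq 1.18.0, TopHat2 2.0.12 and Bowtie2 2.2.3. The assembly is not given in the sources used here. RPKM is not a count, so no count model was used, and totals of reads are unknown.

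Contigs with at least 1 RPKM in 2 or more libraries were kept, and 1572 were left out, 227 of them at 0 in all libraries. Libraries were scaled by an unweighted trimmed mean of log ratios (0.3 of the ratios and 0.05 of the levels trimmed at each end). limma 3.58.1 in R 4.3.3 was fitted to log2(RPKM + 1) with group as the only term, a variance trend and 5 residual degrees of freedom. All 10 libraries entered, to share 1 estimate of the spread. Adjusted p-values are Benjamini-Hochberg values over 26884 contigs, called under 0.05, and 2-fold calls also need a log2 change of 1. SDs are over the 2 libraries of a group. A robust SD is the scaled median absolute deviation. Summaries and figures were made with pandas 2.3.3, numpy 2.4.6 and matplotlib 3.10.9 in Python 3.11.15. The fit was run on simulated data with independent normal values and a spread taken from these libraries. Such data cannot show whether the libraries of a group are technical replicates or share a batch.

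Named contigs were the 2 called rises and 2 called falls of largest size with a mean of at least 10 RPKM over all 10 libraries, no overlap between groups and no other contig of the subcomponent; contigs described without an identifier are those at a stated rank. Lists, rules and alternatives were chosen with earlier results of these data known.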

Additional observations from a re-analysis of the deposited data

How the results depend on the processing

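The direction of all 4 named contigs held under the 19 alternatives. They were chosen as called changes with no overlap between groups, so leaving out 1 library could not reverse it. The filter, block, trend and threshold settings leave their log2 changes as they were. With only the 4 salt and control libraries and no block, the adjusted p (limma) was 0.00773 for both raised contigs. It was 0.0173 for comp48965_c1_seq1 and 0.033 for comp52927_c0_seq3. The smaller p-values given above use the spread of all 10 libraries. The calls of the 4 named contigs held except under the fit of the 4 salt and control libraries with a replicate block. There the adjusted p (limma) was 0.057 for 3 of them and 0.0694 for comp52927_c0_seq3. That fit has 1 residual degree of freedom and called no contig, 0 higher and 0 lower, with or without the size limit, while 8187 had an unadjusted p under 0.05 (limma). With all 10 libraries and a replicate block, 6646 contigs were called. The labels name no shared batch, and whether same-numbered libraries were handled together is not known. Their deviations had a correlation across contigs of 0.0345 for salt and control. Over all pairs of groups it was -0.052 to 0.121, the highest being salt and drought.

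Without scaling, 2074 contigs were lower, 55 of them at least 2-fold, and higher calls made up 71.55% of all calls, against 52.87% in the scaled fit; the median log2 change of all contigs was then 0.06. The pseudocount moved the 2-fold counts to 717 higher and 157 lower at 0.1 RPKM, and to 99 and 25 at 5 RPKM. With only the 4 salt and control libraries, 4284 were called, 2214 higher and 2070 lower, with 337 and 74 at 2-fold. A test against a 1.2-fold change called 1511, 938 higher and 573 lower, and a threshold of 0.01 called 3913, 2175 higher and 1738 lower; the 2-fold counts stayed within 1.5 times. Without contigs raised 8-fold by submergence, 226 of the 25671 contigs then tested rose at least 2-fold. With 1 contig per subcomponent, 18232 contigs were tested, of which 39 fell and 274 rose at least 2-fold.

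Leaving out 1 salt or control library at a time gave 4625 to 4919 calls, 2565 to 2711 higher and 2028 to 2250 lower, with 370 to 389 rises and 92 to 102 falls of at least 2-fold; the single library left in a group is there assumed to vary like the other groups. Without control replicate 1 there were 2028 lower calls, without control replicate 2 2070 and without salt replicate 1 2127. The relative depth of the 4 libraries was within 0.92 to 1.01, and contigs under 5 RPKM had a median SE of 0.14 on the log2 scale, against 0.04 at 500 RPKM or more.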

Other observations

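One abundant contig differed far more between the libraries of a group than between groups. It had 1365 and 21.9 RPKM in the salt libraries, against 143.7 and 13.6 RPKM in the control libraries, with 840.1 and 127.6 RPKM under drought, 249.8 and 8.15 RPKM under submergence, and 19.8 and 25.9 RPKM under heat. Replicate 1 was the higher library in salt, control, drought and submergence, and the lower one under heat. Its log2 change, salt minus control, was 1.87 with an SE of 2.19 and did not pass the test (limma, adjusted p = 0.595). It was the single contig with a mean of at least 100 RPKM over the salt and control libraries that changed by 2-fold or more without being called, and it was chosen for description after its values were seen. Over all contigs tested, 124 differed at least 2-fold between the salt libraries and 99 between the control libraries. Of the contigs that did so in both groups, 8 were higher in replicate 1 of both, none was higher in replicate 2 of both (0 contigs), and 9 went opposite ways.

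One subcomponent held relatives that moved in opposite directions by at least 2-fold. Of its 10 contigs, 1 was listed at 0 in both control libraries and had 4.24 and 3.64 RPKM in salt, and it averaged 30.9 RPKM under drought and was listed at 0 under submergence and heat. Another contig had 4.71 and 4.31 RPKM in salt, against 9.57 and 10.4 RPKM in control leaves (log2 change -1.07, SE 0.09, adjusted p = 9.3e-05). A further contig had 5.92 and 3.31 RPKM in salt, against 13.1 and 10.9 RPKM in control leaves (log2 change -1.33, SE 0.25, adjusted p = 0.00658). These contigs were also chosen after their values were seen, and the split of reads among the 10 was not tested.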
